A study of Canis lupus familiaris with 6 samples.

Results

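The genes described here encode the machinery of mitosis: the cyclins and kinases that start it, the checkpoint and kinetochore proteins that bind chromosomes to the spindle, and the kinesin motors. They were taken from the array by name, as every gene whose name starts with KIF and a digit or with CENP and a letter, together with a list of 30 mitotic genes. The rule found 68 genes, on 111 probes, among 34378 gene or accession names on the array. Of these, 62 were bright enough to be tested. KIF14, KIF19, KIF1A, KIF21B, KIF2B and KIF3B were not well above background on all arrays of either group, and no difference is given for them. CCNB1, MAD2L1, PRC1 and MKI67 have no probe under these names, but 10 genes, among them MAD2L1, PRC1 and MKI67, were found in the probes' descriptions and are given apart from the 62. CCNB1 was not analysed here.

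All 6 samples were MDCK-pTR GFP-RasV12 cells, a line derived from the dog kidney epithelial line MDCK, in which tetracycline switches on the oncogene RasV12 fused to GFP. They had received tetracycline for 24 h on collagen type I, and GFP-positive cells were then sorted. In 3 samples the RasV12 cells had been cultured alone. In the other 3 they had been mixed with normal MDCK cells at 10 MDCK cells per RasV12 cell, although the source label of mixed replicate 2 gives 100. One label also names cells that carry a mCherry-tagged β-catenin mutant, which neither the sample titles nor the paper give for these cultures. The titles name only MDCK single or mix culture, so the identity of the cells is taken from the paper. The comparison asks whether RasV12 cells sorted out of normal neighbours differed in their mitotic genes from RasV12 cells among themselves. RNA of each sample was hybridised to 1 array with a single dye. The arrays had 60.8% to 66.4% of probes well above background, and the number of arrays limits the precision. Each culture had its own slide, so effects of slide and of culture cannot be told apart. Nothing states that replicates were separate cultures, so p-values measure the spread between these samples, which may be technical.

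As background, entry into mitosis is driven by cyclin-dependent kinase 1 with its cyclins A and B, and the transcription factor FOXM1 switches on many of the genes needed in G2 and M phase. At the kinetochore, which is built on centromeric chromatin marked by CENPA, the NDC80 complex holds the microtubules. Unattached kinetochores keep the spindle checkpoint on, which blocks CDC20 and the anaphase-promoting complex. Transcripts of these genes peak in dividing cells, so in a culture their level follows the share of cells in G2 and M phase. Fewer dividing cells and less RNA per dividing cell cannot be told apart in such bulk samples. The kinesin family holds both spindle motors and motors that carry vesicles in cells that do not divide.

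Mixed culture left most of these genes close to their level in culture alone. Levels are log2 intensities relative to each array's 75th percentile, and a difference is the mixed mean minus the alone mean on that scale. The median difference of the 62 genes was -0.03, beside 0.00 for all 26535 probes tested. With arrays scaled to their spike-in controls these medians became -0.19 and -0.16. The difference was above 0 for 28 genes and below 0 for 34, and for 42 it was smaller than 0.2 in size. Only FOXM1 differed by at least 1.5-fold, at 1.81-fold. By limma, fitted across all probes, 12 of the 62 genes had an unadjusted p under 0.05. The share of all probes past the unadjusted threshold was not counted, here or below, so such counts show no excess of members. In this fit that share cannot be under 11.2%, the share of all tested probes that passed an adjusted p of 0.05. Of the 62 genes, 5 (8.06%) passed the adjusted threshold. KIF1C and KIF12 were higher in mixed culture, 2 of 62 genes beside 5.5% of probes. NUF2, KIF2C and KIF3C were lower, 3 of 62 genes beside 5.72% of probes. The 3 alone and the 3 mixed values did not overlap for 14 of the 62 genes (22.6%), beside 37.2% of all probes.

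The size of change that the arrays leave possible is given by the 95% intervals of the fit. Their median half-width over the 62 genes was 0.26. For 48 of the 62 genes the whole interval lay within 1.5-fold in either direction, and for 61 it lay within 2-fold. FOXM1 was the exception, with an interval from 0.31 to 1.40.

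**Figure D1:**
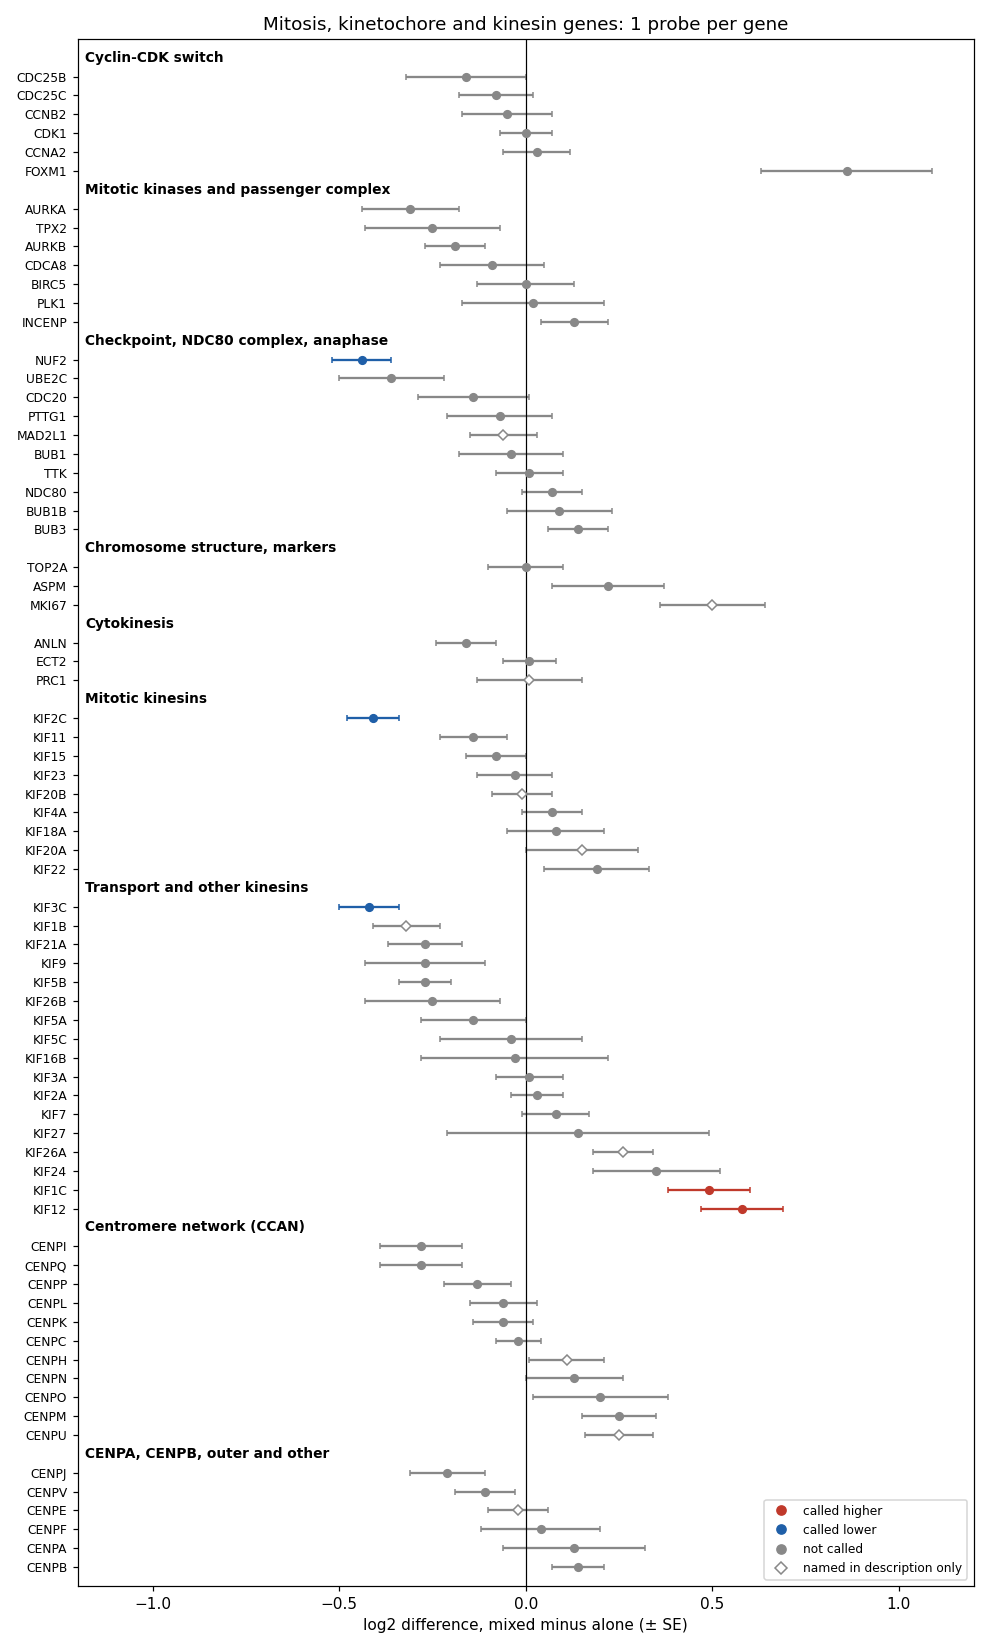
Log2 difference (mixed minus alone) with its SE from the limma fit, for the 62 tested member genes (filled circles) and the 10 genes named in the probe description only (open diamonds), grouped by role. Most points lie near 0, KIF1C and KIF12 are called higher, NUF2, KIF2C and KIF3C lower, and FOXM1 stands farthest from 0 at 0.86 without being called.

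At the kinetochore, NUF2, a subunit of the NDC80 complex, fell in mixed culture. Its log2 level was 3.67, 3.73 and 3.84 in the 3 alone samples and 3.38, 3.27 and 3.27 in the mixed samples. Every mixed value lay below every alone value. The difference was -0.44 (SE 0.08, adjusted p = 0.0254). The array carries 3 probes for NUF2, whose positions are shown here because they give the same direction at separate places of the gene. Each line gives bases 1 to 30 of a 60-base probe, in lower case, with its place on canFam3; exon and UTR positions were not analysed here.
NUF2 probe 1 (chr38:19574125-19574184, minus strand): agctattcatgtccttgccccttgtaagta
NUF2 probe 2 (chr38:19574432-19574491, minus strand): tgaaaactgctttggagaaataccatgaag
NUF2 probe 3 (chr38:19588480-19588539, minus strand): tcaagcagctttccgatgatattcaggagc
Probe 1 is the brightest and gave the values above. Probe 2 was lower by a difference of -0.27 (adjusted p = 0.0447). Probe 3 had a difference of -0.35 and missed the threshold (adjusted p = 0.0524).

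The other subunits of the complex were not called. SPC25, from the list of other mitosis genes, was at 3.39, 3.15 and 3.24 alone and 3.13, 2.94 and 2.95 mixed, without overlap, and its difference of -0.25 missed the threshold (adjusted p = 0.126). SPC24 had a difference of -0.11 (adjusted p = 0.655), and its groups overlapped. NDC80, the partner that binds the microtubule together with NUF2, had levels of 1.73, 1.54 and 1.58 alone and 1.73, 1.68 and 1.67 mixed. Its difference was 0.07, with an interval from -0.12 to 0.26. The groups of NDC80 overlapped. BUB1, a checkpoint kinase, was at 5.02, 4.61 and 4.66 alone and 4.91, 4.62 and 4.65 mixed (difference -0.04, interval -0.37 to 0.29). TTK, the kinase that starts checkpoint signalling at unattached kinetochores, was at 0.96, 1.10 and 1.23 alone and 1.05, 1.07 and 1.19 mixed (difference 0.01). CDC20, the activator of the anaphase-promoting complex on which the checkpoint acts, was at 2.23, 1.89 and 1.93 alone and 2.15, 1.76 and 1.73 mixed (difference -0.14, adjusted p = 0.567). In each of these genes the 2 groups overlapped. MAD2L1, which binds CDC20 when the checkpoint is on and was found by its description only, had a difference of -0.06, with levels of 1.69, 1.47 and 1.53 alone and 1.58, 1.40 and 1.53 mixed. Of the 9 tested genes of the checkpoint, NDC80 complex and anaphase group, NUF2 was the gene called (11.1%), beside 11.2% of all probes. The group's median difference was -0.04.

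UBE2C, the ubiquitin-conjugating enzyme of the anaphase-promoting complex, had the second lowest difference in this group. It was at 3.45, 3.10 and 3.14 alone and 3.10, 2.74 and 2.78 mixed. The groups overlapped by a narrow margin, since alone replicate 2 and mixed replicate 1 had the same value to 2 decimals. Its difference was -0.36 and was not called (adjusted p = 0.135). Within each replicate number the mixed value was lower by nearly the same amount, with differences of -0.35, -0.36 and -0.37. With the replicate number as a block in the fit, UBE2C was called lower (adjusted p = 0.0446).

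The cyclin-CDK group, which sets the entry into mitosis, had no called gene among 6 tested by limma, beside 11.2% of all probes. Of these 6 genes, 1, FOXM1, had an unadjusted p under 0.05. CDK1 itself was at 3.69, 3.56 and 3.63 alone and 3.66, 3.60 and 3.63 mixed. Its mean was the same in both cultures to 2 decimals (difference 0.00, interval -0.17 to 0.17). CCNA2, the S and G2 phase cyclin, was at 2.57, 2.31 and 2.41 alone and 2.52, 2.38 and 2.48 mixed (difference 0.03, interval -0.19 to 0.25). CCNB2, a B-type cyclin, had a difference of -0.05, and the phosphatases CDC25B and CDC25C, which remove the inhibitory phosphates from CDK1, had -0.16 and -0.08. On their brightest probes the 5 genes other than FOXM1 in this group thus all differed by less than 0.2. The dimmest of 3 CCNB2 probes had a difference of -0.27 without overlap and was not called (adjusted p = 0.139).

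FOXM1 was the exception of the group. It was at 1.61, 0.76 and 0.85 alone and 2.09, 1.79 and 1.90 mixed. The lowest mixed value was above the highest alone value, but alone replicate 1 lay well above the other alone samples. The difference was 0.86 (SE 0.23) and just missed the threshold (adjusted p = 0.0596). A further FOXM1 probe gave a difference of 0.72 (adjusted p = 0.0628). The probes are shown because FOXM1 had the largest difference among the 62 genes, measured at separate places.
FOXM1 probe 1 (chr27:41904544-41904603, plus strand): cacgatgaatgacagcctcagcaagatcct
FOXM1 probe 2 (chr27:41905430-41905489, plus strand): atgtttctctgataacgtccctaatcatgc
Probe 2 gave the values above. Within replicate numbers FOXM1 was higher in mixed culture by 0.49, 1.04 and 1.05, and it was called higher with the replicate number as a block (adjusted p = 0.0374). Without alone replicate 1 the difference was 1.12 (adjusted p = 0.00516 by limma), in a fit that called 7335 of 27757 probes. Without any other single array the difference of FOXM1 was 0.70 to 0.92 and was not called (adjusted p from 0.139 to 0.183).

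MKI67, whose product Ki-67 coats mitotic chromosomes and is widely used as a mark of cycling cells, was found by its description only. It was at 0.68, 0.27 and 0.32 alone and 1.12, 0.82 and 0.84 mixed. The groups did not overlap. The difference of 0.50 (SE 0.14) was not called (adjusted p = 0.0644), and it was called higher with the replicate block (adjusted p = 0.0349). A dimmer MKI67 probe had a difference of 0.29, also without overlap, and was not called (adjusted p = 0.0954). Without alone replicate 1 the brighter probe was called higher by limma (adjusted p = 0.0175). Without any other single array it was not called (adjusted p from 0.138 to 0.194). TOP2A, the topoisomerase that untangles sister chromatids, was at 3.03, 3.07 and 3.21 alone and 3.26, 2.96 and 3.09 mixed, with a difference of 0.00 and an interval from -0.24 to 0.24. ASPM, a spindle pole protein, had a difference of 0.22 (adjusted p = 0.354).

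With the block, 3 of the 62 genes were called higher and 4 lower, beside 10.6% of all probes called in either direction. The 5 genes called without it were called again, with adjusted p from 0.0368 to 0.0494, and FOXM1 and UBE2C were added.

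**Figure D2:**
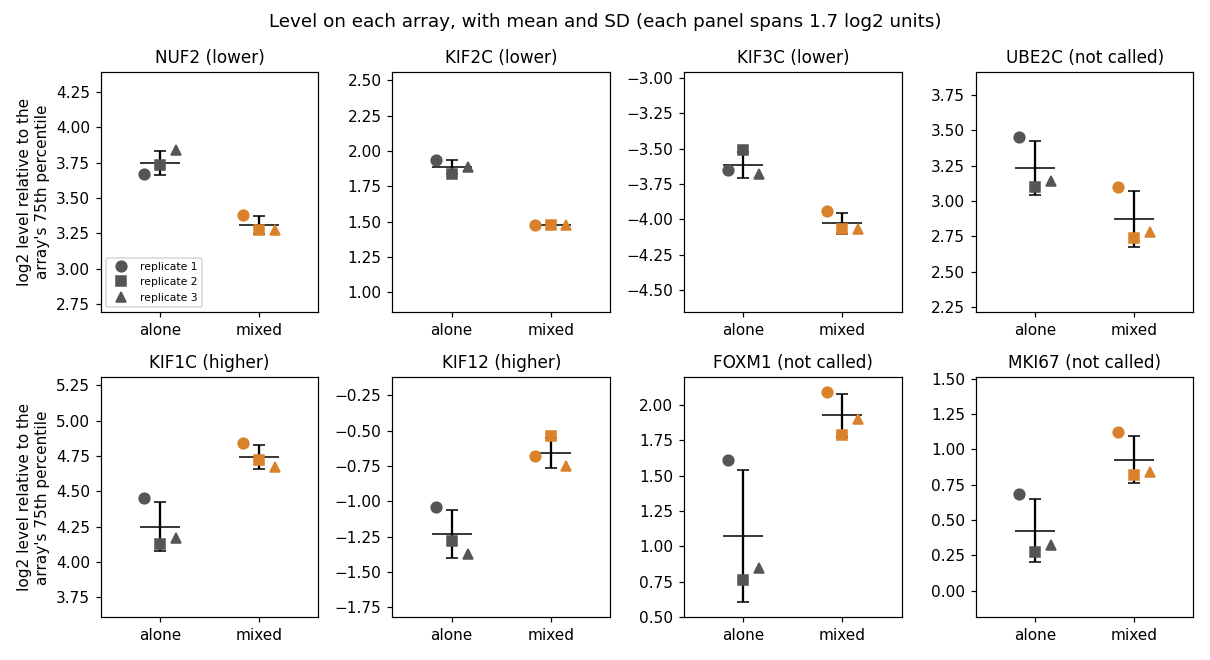
Log2 level relative to the array's 75th percentile on each of the 6 arrays for 8 genes, with the replicate number as marker shape and the group mean and SD in black; panels have their own y axis of equal span. NUF2, KIF2C and KIF3C are lower and KIF1C and KIF12 higher in mixed culture without overlap. FOXM1 and MKI67 are also higher without overlap but are not called. In FOXM1, MKI67, UBE2C and KIF1C replicate 1 lies above the others in both groups.

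None of the 7 tested mitotic kinases and chromosomal passenger proteins was called by limma, beside 11.2% of all probes. On their brightest probes none had an unadjusted p under 0.05 either. The passenger complex, made of AURKB, BIRC5, CDCA8 and INCENP, corrects faulty attachments at the centromere and later acts in cytokinesis. PLK1, a kinase of centrosome maturation and mitotic exit, was at 2.69, 2.24 and 2.29 alone and 2.81, 2.22 and 2.28 mixed (difference 0.02, interval -0.44 to 0.49). Replicate 1 of PLK1 was the highest in both groups. AURKA, the kinase of spindle poles, was at 1.95, 1.61 and 1.62 alone and 1.63, 1.29 and 1.35 mixed (difference -0.31, adjusted p = 0.174). Its activator TPX2 had a difference of -0.25 (adjusted p = 0.376). Both had lower means in mixed culture, but on these probes their groups overlapped. A dimmer AURKA probe had a difference of -0.46 without overlap and was not called (adjusted p = 0.0934). Within replicate numbers the brighter AURKA probe differed by -0.33, -0.33 and -0.27. With the replicate number as a block AURKA was not called (adjusted p = 0.0556). AURKB was at 4.48, 4.28 and 4.43 alone and 4.14, 4.26 and 4.24 mixed (difference -0.19, adjusted p = 0.181), with no overlap by a narrow margin. A dimmer AURKB probe gave -0.32 and was called lower (adjusted p = 0.0387). BIRC5, also known as survivin, was at 3.21, 2.82 and 2.80 alone and 3.03, 2.95 and 2.86 mixed (difference 0.00, interval -0.30 to 0.31). CDCA8 and INCENP differed by -0.09 and 0.13. Of the cytokinesis genes, ANLN, which links actin to the cleavage furrow, had -0.16 and ECT2, the exchange factor that activates RhoA there, had 0.01.

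Among the kinesins of the spindle, 1 of 7 tested genes was called, beside 11.2% of all probes. KIF2C, a microtubule depolymerase that releases wrongly attached kinetochores, was at 1.94, 1.84 and 1.89 alone and 1.48 in each of the 3 mixed samples. The difference was -0.41 (SE 0.07, adjusted p = 0.0208), with no overlap. The called probe is the brightest of 3, and the others did not pass the test, with differences of -0.16 (adjusted p = 0.320) and -0.24 (adjusted p = 0.193). They are shown because the call rests on probe 1.
KIF2C probe 1 (chr15:15558034-15558093, minus strand): cagcaaacaaataagcaacaagaaacggcc
KIF2C probe 2 (chr15:15567162-15567663, minus strand): ttggaatgccatccacttactatgactgat
KIF2C probe 3 (chr15:15571064-15571123, minus strand): aggagaatgatatggaggtagagctaccag
With the mean of the 3 probes KIF2C had a difference of -0.27 and was not called (adjusted p = 0.0989).

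The other spindle kinesins lay near 0. KIF11, which pushes the spindle poles apart, was at 1.99, 1.80 and 1.87 alone and 1.87, 1.66 and 1.71 mixed (difference -0.14, interval -0.36 to 0.08). KIF23, a motor of the central spindle in cytokinesis, was at 3.32, 3.10 and 3.21 alone and 3.35, 3.10 and 3.10 mixed (difference -0.03). KIF20A, a partner of the passenger complex in cytokinesis found by its description only, was at 0.73, 0.34 and 0.53 alone and 0.94, 0.47 and 0.64 mixed (difference 0.15, adjusted p = 0.543). The groups overlapped for all of them. On their brightest probes the remaining tested spindle kinesins, KIF15, KIF18A, KIF22 and KIF4A, ranged from -0.08 to 0.19. Dimmer probes had 0.27 for KIF18A, 0.15 for KIF15 and 0.14 for KIF22 and were not called.

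The kinesins of transport and of other functions held 3 called genes among 15 tested (20.0%), beside 11.2% of all probes. The difference between these shares was not tested. KIF1C, a fast motor for vesicles, was at 4.45, 4.13 and 4.17 alone and 4.84, 4.72 and 4.67 mixed. The difference was 0.49 (SE 0.11, adjusted p = 0.0374). The dimmer of its 2 probes gave 0.51 and just missed the threshold (adjusted p = 0.0612), so that the differences of both probes were of about the same size. KIF12, a kinesin of the kidney tubule epithelium, was at -1.04, -1.28 and -1.37 alone and -0.68, -0.54 and -0.75 mixed. The difference was 0.58 (SE 0.11, adjusted p = 0.0281), the largest among called members. KIF3C, a kinesin-2 motor subunit that pairs with KIF3A, was at -3.65, -3.51 and -3.68 alone and -3.94, -4.07 and -4.07 mixed. The difference was -0.42 (SE 0.08, adjusted p = 0.0299), and with normexp background correction it was -0.12 (adjusted p = 0.215). KIF3A had a difference of 0.01 on its brightest probe and -0.35 on another that was called lower (adjusted p = 0.0456). KIF5B, a heavy chain of conventional kinesin, had -0.27 and missed the threshold by little (adjusted p = 0.0519), with 3.89, 3.91 and 3.91 alone and 3.63, 3.57 and 3.69 mixed. The other heavy chains KIF5A and KIF5C had -0.14 and -0.04, and their groups overlapped.

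None of the 14 tested centromere genes was called by limma, beside 11.2% of all probes. An unadjusted p under 0.05 was found for 3 of them, all of the constitutive network. CENPA, the histone that marks the centromere, was at 0.92, 0.31 and 0.39 alone and 0.90, 0.50 and 0.59 mixed (difference 0.13, adjusted p = 0.682). CENPF, a large protein of the outer kinetochore, was at -1.61, -1.82 and -1.70 alone and -1.34, -1.96 and -1.71 mixed (difference 0.04, adjusted p = 0.889). CENPE, the kinesin that moves chromosomes to the spindle equator and was found by its description only, was at -1.13, -1.08 and -1.08 alone and -1.14, -1.21 and -1.02 mixed (difference -0.02). In all of these the groups overlapped. The 9 tested genes of the constitutive centromere network, which joins CENPA chromatin to the outer kinetochore, had differences from -0.28 for CENPI and CENPQ to 0.25 for CENPM, with a median of -0.06. CENPJ, which despite its name is a centriole protein, had -0.21 on its brightest probe and 0.54 on another, which was called higher (adjusted p = 0.0248). That other CENPJ probe was dim, with mean log2 levels of -4.72 alone and -4.19 mixed.

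Probes of a gene did not always give the same result. Of the 29 genes with several tested probes, 9 had differences of both signs and 7 had a called and an uncalled probe. The widest gap was that of KIF16B, an endosomal kinesin, with -0.03 on its brightest probe and -0.83 (adjusted p = 0.0236) on the other. Both were dim, with mean log2 levels of -4.5 alone and -4.53 mixed, and of -4.13 and -4.96 on the other. AURKB, CENPJ, KIF1C, KIF2C, KIF3A and NUF2 were the other 6 with split calls.

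The calls depended on single arrays. Without alone replicate 2, alone replicate 3, mixed replicate 2 or mixed replicate 3 none of the 62 genes was called by limma, 10, 9, 7 and 8 of them had an unadjusted p under 0.05, and 24, 7, 9 and 12 of all probes were called. Without mixed replicate 1, 63 member genes were tested. None was called higher and 3 were called lower, NUF2, KIF2C and KIF3C, beside 2009 of 26942 probes called in all. Without alone replicate 1 the count was 6 higher and 5 lower of 64 member genes tested, with all 5 calls kept. In that fit 7335 of all 27757 probes tested were called. The direction of the difference of NUF2, KIF2C, KIF3C, KIF1C and KIF12 could not change in these fits, because their groups did not overlap.

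Within each group, many of these genes were highest in replicate 1. Replicate 1 was above both other arrays of its group in alone and in mixed culture for 34 of the 62 genes (54.8%), beside 23.3% of all probes. It was below both in both groups for 4 genes, beside 20.5% of probes. The median level over the 62 genes was 1.43, 1.20 and 1.26 on the alone arrays and 1.37, 1.23 and 1.30 on the mixed arrays. Replicate 1 of both groups stood above the others by more than the cultures differed. This is a description of 6 arrays, and arrays of the same replicate number also sat at the same place of their slides.

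By role, replicate 1 was highest in both groups for 6 of 6 cyclin-CDK genes, 6 of 7 kinases and passenger proteins, 7 of 9 checkpoint and anaphase genes and 6 of 7 spindle kinesins. It was so for 1 of 2 cytokinesis genes, 1 of 2 genes of chromosome structure, 3 of 9 genes of the constitutive centromere network, 3 of 5 other centromere genes and 1 of 15 transport and other kinesins. The differences between these shares were not tested. PLK1 stood above the mean of replicates 2 and 3 by 0.42 alone and 0.56 mixed, and CENPA by 0.57 and 0.35. With quantile normalization the count was 34 of 62 again, beside 25.3% of probes. With arrays scaled to their spike-in controls it was 15 of 62 (24.2%), beside 3.96% of probes, with 2 of 6 cyclin-CDK genes, 5 of 7 kinases and passenger proteins, 5 of 9 checkpoint and anaphase genes and 1 of 7 spindle kinesins. The members' median of replicate 1 minus the other alone arrays was then -0.10, beside 0.18 with the 75th percentile, and -0.25 over all probes. The spike-in signal relative to the 75th percentile was 1.975 on alone replicate 1 and 1.645 and 1.74 on the other alone arrays, so that its scaling lowers alone replicate 1 against them.

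**Figure D3:**
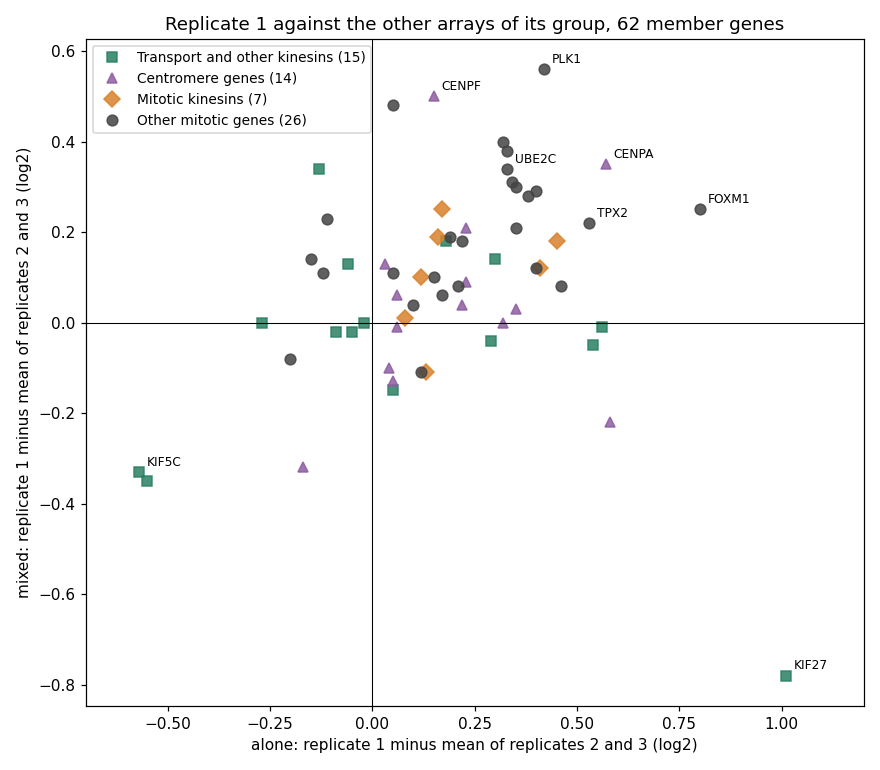
For each of the 62 member genes, replicate 1 minus the mean of replicates 2 and 3 on the log2 scale, in culture alone (x) and in mixed culture (y), by role. Most spindle kinesins and other mitotic genes lie in the upper right, where replicate 1 is higher in both groups, whereas transport kinesins scatter around 0.

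**Figure D4:**
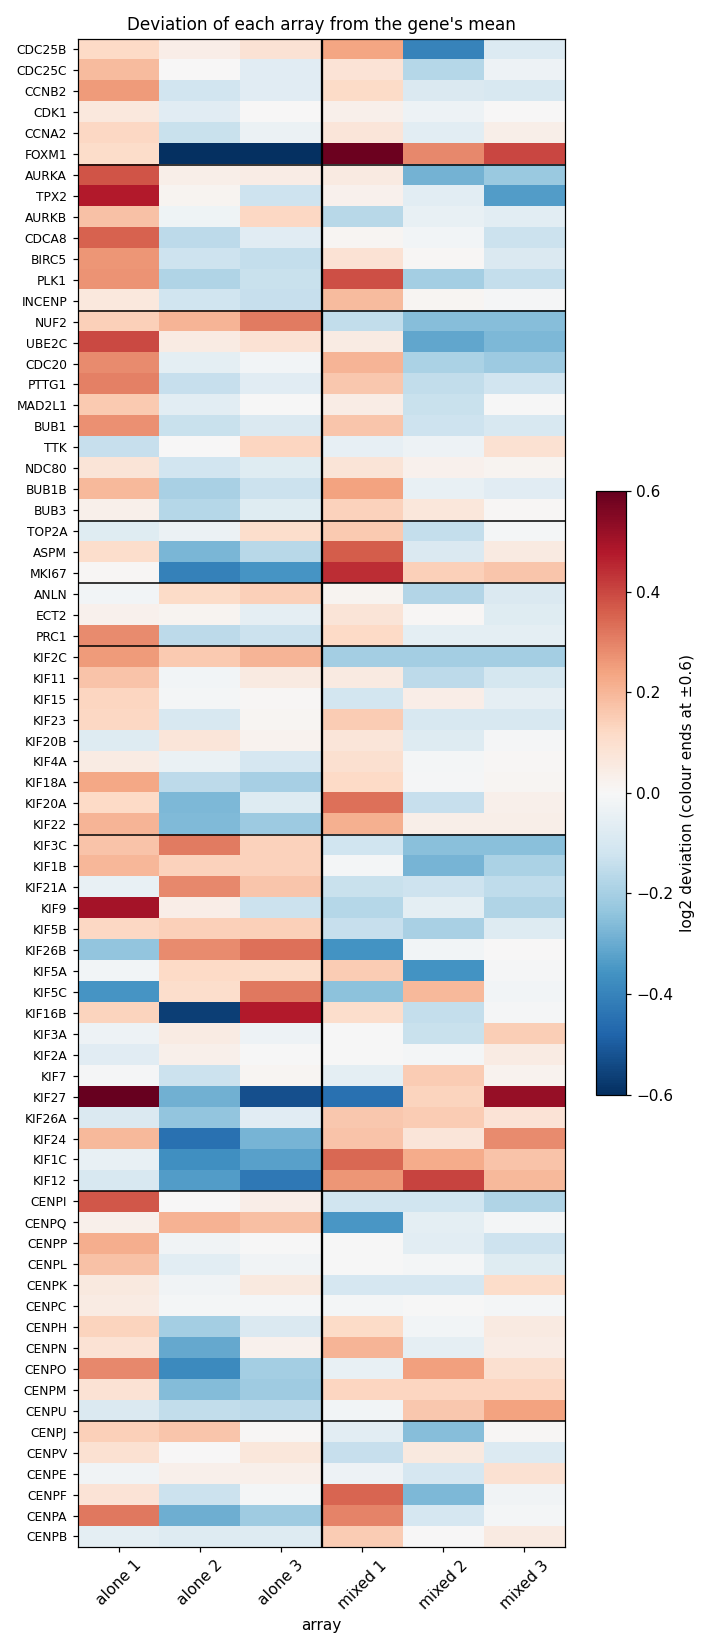
Deviation of each array from the gene's mean over 6 arrays on the log2 scale, for 62 member genes and 10 named in the description, in the role order of the plot of differences and split between alone and mixed arrays. The replicate 1 column of each culture is redder than the other 2 for most genes of the upper blocks, and rows such as NUF2, KIF2C, KIF1C and KIF12 change colour between the cultures.

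Other genes of the cell cycle were read from lists beside the members. Of 75 tested other mitosis genes, 2 were called higher and 5 lower (9.33%), beside 11.2% of all probes. Their median difference was -0.01. The called gene with the largest difference was CEP55, an abscission protein of the midbody. It was at -0.26, 0.04 and 0.12 alone and -1.04, -1.01 and -0.95 mixed (difference -0.97, adjusted p = 0.0135). CCNF, a cyclin that serves a ubiquitin ligase, had -0.62 (adjusted p = 0.0267), and FZR1, the other activator of the anaphase-promoting complex, -0.55 (adjusted p = 0.0253). KIFC1, a minus-end spindle motor, and KNTC1, a kinetochore protein that recruits dynein, had -0.36 and -0.34 and were also called lower, but not with the replicate block (adjusted p = 0.0777 and 0.0645). The condensin subunit SMC2 at 0.53 and the CDK phosphatase CDKN3 at 0.36 were called higher, and CDKN3 was not called with the block (adjusted p = 0.0578). With the block the list held 1 gene called higher and 3 lower.

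Of 60 tested genes of DNA replication and the G1/S step, 2 were called higher and 2 lower (6.67%), beside 11.2% of all probes. Their median difference was 0.03. CCNE2, an E-type cyclin of S phase entry, was at -1.67, -2.06 and -2.14 alone and -1.13, -1.16 and -1.03 mixed (difference 0.85, adjusted p = 0.0193). The replication licensing factor CDT1 had 0.61 (adjusted p = 0.0422). CCND1, the G1 cyclin, had -0.59 (adjusted p = 0.0366), and was not called with the block (adjusted p = 0.0633) or with quantile normalization (adjusted p = 0.0567). ORC4, a subunit of the origin recognition complex, had -0.37 (adjusted p = 0.0328).

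Of 14 tested CDK inhibitor and quiescence genes, 3 were called higher and 1 lower (28.6%), beside 11.2% of all probes, a difference in shares that was not tested. CDKN1A, which encodes p21, was at 6.74, 7.30 and 7.15 alone and 6.28, 6.21 and 6.11 mixed (difference -0.86, adjusted p = 0.0233). CDKN2B, which encodes the CDK4 and CDK6 inhibitor p15, was at 2.07, 1.15 and 1.12 alone and 3.04, 2.46 and 2.47 mixed (difference 1.21, adjusted p = 0.0466). The antiproliferative gene BTG2 had 0.88 (adjusted p = 0.0135) and RB1, the retinoblastoma gene, 0.47 (adjusted p = 0.0193). Over these 3 lists 15 of 149 genes were called, beside 11.2% of all probes. Without alone replicate 2, alone replicate 3, mixed replicate 2 or mixed replicate 3 none was called by limma, with 21, 21, 22 and 22 at an unadjusted p under 0.05, 8 were called when mixed replicate 1 was left out, and 36 when alone replicate 1 was.

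**Figure D5:**
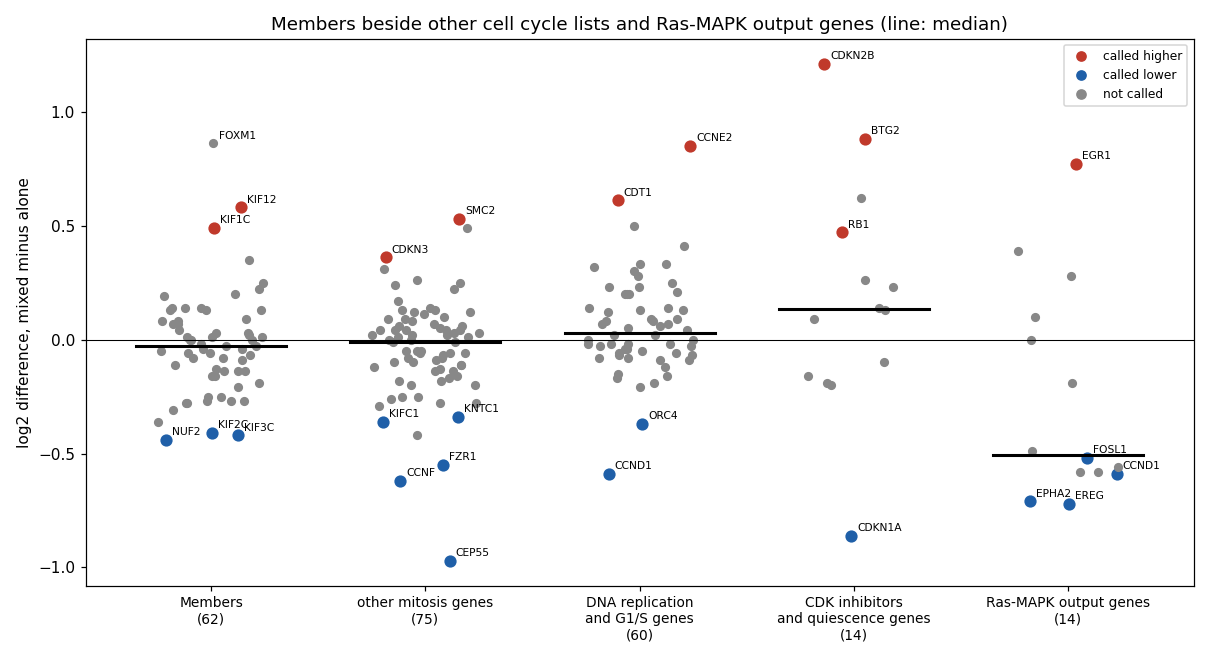
Log2 difference (mixed minus alone) of each tested gene in the members and in 4 other lists, with the median as a black line and called genes in colour and named; the horizontal position within a list has no meaning. The members and the replication and mitosis lists centre near 0, and the Ras-MAPK output genes lie lower, with a median of -0.50.

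The sorted cells carried the markers of their line. All 11 kidney epithelial markers on the array, such as CDH1, EPCAM and PAX8, were well above background on all 6 arrays, and the list's summed level relative to the 75th percentile was 685 to 855 alone and 803 to 889 mixed. CLDN2 was the marker called, higher by 2.49 (adjusted p = 0.0103). The summed level of 5 leukocyte markers was 1.59 to 1.75 alone and 1.74 to 1.83 mixed, with PTPRC not well above background on any array. Of these 5 markers, 2 were well above background on all 6 arrays, and the brightest had a mean log2 level of 0.62. For 6 fibroblast markers the summed level was 1.11 to 1.18 alone and 1.24 to 1.33 mixed, with COL3A1 and PDGFRA not well above background. Of these 6 markers, 3 were well above background on all 6 arrays, and the brightest had a mean log2 level of 0.08. Of 14 tested output genes of the Ras-MAPK pathway, which RasV12 drives, 5 were called (35.7%), beside 11.2% of all probes. The difference between these shares was not tested. EGR1 was called higher and FOSL1, EREG, EPHA2 and CCND1 lower. With the replicate block 2 genes of this list were called higher and 4 lower, and CCND1 was not called. The list's summed level was 132 to 136 alone and 112 to 127 mixed. Whether normal MDCK cells among the sorted cells have a part in the values of the mitotic genes was not tested.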

How the data were processed

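RNA of 6 samples, 3 alone and 3 mixed by their labels, was measured on 1-colour Agilent canine arrays. The authors deposited scanner output, with a processed intensity per spot corrected for background, and a table of log2 values. Each column of that log2 table equals the log2 processed intensity minus the array's 75th percentile, apart from a constant of at most 0.001 and single deviations up to 0.0773; it lists 26529 probes.

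Here control spots and outlier-flagged spots were left out, spots of a probe were averaged, and from each log2 intensity the 75th percentile of its array, over 43603 probes, was subtracted. Probes well above background on every array of a group, alone or mixed, were tested. Groups were compared by limma 3.58.1 (lmFit and eBayes, R 4.3.3), by two-sided tests, adjusted by Benjamini and Hochberg over 26535 probes, at a threshold of 0.05. A gene is represented by its brightest probe. Tables used Python 3.11.15, pandas 2.3.3 and numpy 2.4.6, plots matplotlib 3.10.9. The fit was tested on simulated data.

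Per-array values are given for a fixed set of core mitotic genes, for called members and for the 3 largest rises and falls; UBE2C, KIF5B, second probes and genes of other lists were named after their values were seen. Members and lists were chosen with earlier results of these data known. After removing group means, arrays with the same replicate number, which comes from the sample titles, correlated at 0.349, 0.162 and 0.296 over 26529 probes, and other pairs at -0.329 to 0.238, so a fit with the number as a block was also made. Alternatives were quantile, normexp (offset 50) and spike-in normalization, other filters, the deposited table, the methods' t-test, the mean over a gene's probes and leaving out each array; the scalings of the replicate 1 pattern were added after seeing the data. Promoters were not analysed here. Some probe sequences are not reported here.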

Additional observations from a re-analysis of the deposited data

How the results depend on the processing

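Counts of members called higher and lower were 2 and 3, of 2978 probes called in all, and 15 genes of the other cell cycle lists were called. With spike-in scaling these became 0 and 1 (KIF2C), 935 and 7, with 19 members at an unadjusted p under 0.05. That scaling moved the median of all probes to -0.16 and the members' median to -0.19, and 30.4% of calls over all probes were higher instead of 49.0%. Without a filter on dim probes, which adds tests, no member was called by limma (0 and 0, with 8 at an unadjusted p under 0.05), 12 probes were called in all and 0 genes of the other lists. By the methods' t-test after Benjamini-Hochberg adjustment the counts were 0 and 1 (KIF2C), 828 and 3, and 9 members had an unadjusted p under 0.05. With normexp background correction 3977 probes were called in all; the cause was not tested. Leaving out 1 array gave 0 to 6 members called higher, 0 to 5 lower, 7 to 7335 probes and 0 to 36 genes of the other lists, with members' medians from -0.07 to 0.02. With the replicate block 3 members were called higher and 4 lower, and 2825 probes in all; the block removed no call of a member, but of the other lists' 15 calls 11 were left, without KNTC1, KIFC1, CDKN3 and CCND1. Quantile normalization, the deposited table and the stricter filter kept all counts within 1.5 times. The mean over probes did so for the counts of members and of the other lists. Over all 19629 gene or accession names, 969 were then called higher and 928 lower. Of 640 values for 43 named genes under all alternatives, 479 kept their side of the threshold, 149 lost and 12 gained it. The sign changed for 42 of them, in 14 genes that were not called, and for 0 of the called genes. Leaving out an array could not change the sign of a gene whose groups did not overlap. Slide could not be fitted as a block, because no slide held both cultures. Probes near background, as the 6 untested kinesins, limit the depth of the comparison.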
